A study of Mus musculus with 10 samples.

Results

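Messenger RNAs of 9 genes of B cells, plasma cells and antibody transport were followed in whole lung of mice with and without allergic airway inflammation. The genes were given by name and not picked by a threshold. They comprised the B cell surface and receptor genes Ms4a1, Cd79a and Cd79b, the transcription factor genes Pax5 and Pou2af1, the plasma cell genes Mzb1, Jchain and Sdc1, and the antibody transporter gene Pigr. All 9 of 9 were found among the 24394 gene symbols of the expression table, each with 1 transcript row, and all 9 passed the filter used for testing, a mean of at least 1 FPKM (fragments per kilobase of transcript, divided by the number of mapped fragments) over the 10 libraries, which 11205 gene sums passed.

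B cells recognise antigen through a membrane immunoglobulin that signals by way of the Cd79a and Cd79b proteins. Activated B cells can become plasma cells, which shut down much of the B cell programme and secrete antibody. Antibody built as polymers with the joining chain, the product of Jchain, is carried across the airway epithelium into the lumen by the polymeric immunoglobulin receptor, the product of Pigr.

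All animals were female BALB/c mice aged 8 weeks, and RNA was taken from whole lung. Saline mice (n = 3) received saline alone. OVA mice (n = 3) were sensitised to ovalbumin, an egg protein, by intraperitoneal injection with alum, challenged with it through the nose from day 12 and given vehicle by mouth. Herb mice (n = 4) underwent this ovalbumin course and were given, in addition, an ethanol extract of Descurainia sophia seeds by mouth at 200 mg/kg from day 9 to day 15. No group here received the extract without ovalbumin. OVA vs. Saline compares the whole ovalbumin course, with alum and oral vehicle, with saline alone, and the parts of that course cannot be told apart. Herb vs. OVA compares mice given the extract with mice given vehicle, all after the ovalbumin course. Both comparisons contain the same OVA libraries.

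Depth, estimated from the lowest FPKM values, was about 14900000 to 21400000 fragments in Saline, 20300000 to 29400000 in OVA and 14700000 to 21300000 in Herb. The share of fragments on protein-coding RefSeq transcripts was 32.7 to 33.0% in Saline, 11.8 to 14.7% in OVA and 19.2 to 25.6% in Herb, and the 75th percentile of the tested gene sums moved with it, from 9.20 to 9.28 FPKM in Saline to 3.68 to 4.58 in OVA and 5.79 to 7.43 in Herb. FPKM divides by all mapped fragments. The share did not overlap between the groups, so group and library composition cannot be told apart. The median log2 fold change of all tested gene sums was -0.75 in OVA vs. Saline, 0.48 in Herb vs. OVA and -0.27 in Herb vs. Saline. After each library was rescaled to a common 75th percentile, these medians were 0.07, 0.01 and 0.09. The members' results are therefore given on both scales, called as deposited and rescaled, and the sums of marker lists as deposited. In bulk tissue, fewer cells of a type and less RNA per cell cannot be told apart.

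Promoter sequence from RefSeq (GRCm38.p6, the assembly that mm10 represents) was available for 6 of the 9 genes. For Pax5 the bases after the annotated start were not found in its transcript, so its window is less certain. The 250 bases before the annotated start are printed for the B cell receptor gene, the plasma cell gene and the transporter gene whose levels are followed in most detail, 5′ to 3′ on the strand of the gene. Cd79a lies at chr7:24897497-24901858 on the plus strand and its window is chr7:24897247-24897496. Jchain lies at chr5:88519809-88527897 on the minus strand and its window is chr5:88527898-88528147. Pigr lies at chr1:130826684-130852249 on the plus strand and its window is chr1:130826434-130826683. The others for which a position is given here lie at chr19:11249679-11266149 (Ms4a1), chr11:106311341-106314562 (Cd79b), chr4:44524748-44710694 (Pax5), chr9:51213690-51240079 (Pou2af1) and chr12:8771396-8793716 (Sdc1). Capitals mark the matches to the E-box letters named after the sequences.
Cd79a: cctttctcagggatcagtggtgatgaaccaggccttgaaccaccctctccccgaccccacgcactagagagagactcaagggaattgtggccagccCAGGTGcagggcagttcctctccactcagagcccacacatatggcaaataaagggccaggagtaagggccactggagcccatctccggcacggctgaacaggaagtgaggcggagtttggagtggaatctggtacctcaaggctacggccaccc
Jchain: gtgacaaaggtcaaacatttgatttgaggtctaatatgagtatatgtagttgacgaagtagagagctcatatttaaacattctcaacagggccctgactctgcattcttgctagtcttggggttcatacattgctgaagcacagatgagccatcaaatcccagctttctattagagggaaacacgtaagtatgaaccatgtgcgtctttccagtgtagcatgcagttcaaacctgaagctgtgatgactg
Pigr: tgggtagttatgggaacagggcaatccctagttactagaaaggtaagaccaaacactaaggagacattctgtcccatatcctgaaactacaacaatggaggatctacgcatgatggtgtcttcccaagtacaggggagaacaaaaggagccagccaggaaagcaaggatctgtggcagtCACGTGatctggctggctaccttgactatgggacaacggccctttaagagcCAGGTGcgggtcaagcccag
The E-box CAGGTG, a form bound by E2A-type factors, was searched on both strands and was present 154 to 149 bases before the start of Cd79a and 20 to 15 bases before the start of Pigr. It is present in 17.2% of 32817 promoter windows of the same length. The palindromic E-box CACGTG lay 71 to 66 bases before the start of Pigr and is present in 6.02% of windows. The element TGACGTGG of the unfolded protein response lay 61 to 54 bases before the start of Pou2af1 and is present in 0.564% of windows. The octamer ATTTGCAT (1.6% of windows) was in none of the 6 windows, nor were motifs of the EBF type (0.78%), the STAT6 type (5.85%) and the IRF type (2.97%). These letters were searched with the sequences already in view, and a match is a description of sequence only.

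In the lungs of saline mice the 9 messages spanned about an order of magnitude. On the FPKM scale, which is per transcript length, the Saline means ± SD (n = 3) were 15.6 ± 5.07 for Sdc1, 9.14 ± 4.62 for Jchain, 8.33 ± 2.32 for Cd79b, 8.11 ± 3.39 for Pigr, 5.55 ± 1.45 for Ms4a1, 3.65 ± 0.589 for Cd79a, 2.20 ± 0.482 for Mzb1, 1.61 ± 1.39 for Pou2af1 and 1.47 ± 0.697 for Pax5. Each neighbouring pair in this order lay within the larger of its SDs, apart from Sdc1 and Jchain, Ms4a1 and Cd79a, and Cd79a and Mzb1. The order was different in OVA, where Pigr, at 31.7 ± 23.1 FPKM, was highest, Sdc1 followed at 8.46 ± 2.02, and Jchain stood at 1.11 ± 0.342, below Pax5 in each of the 3 libraries.

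**Figure D1:**
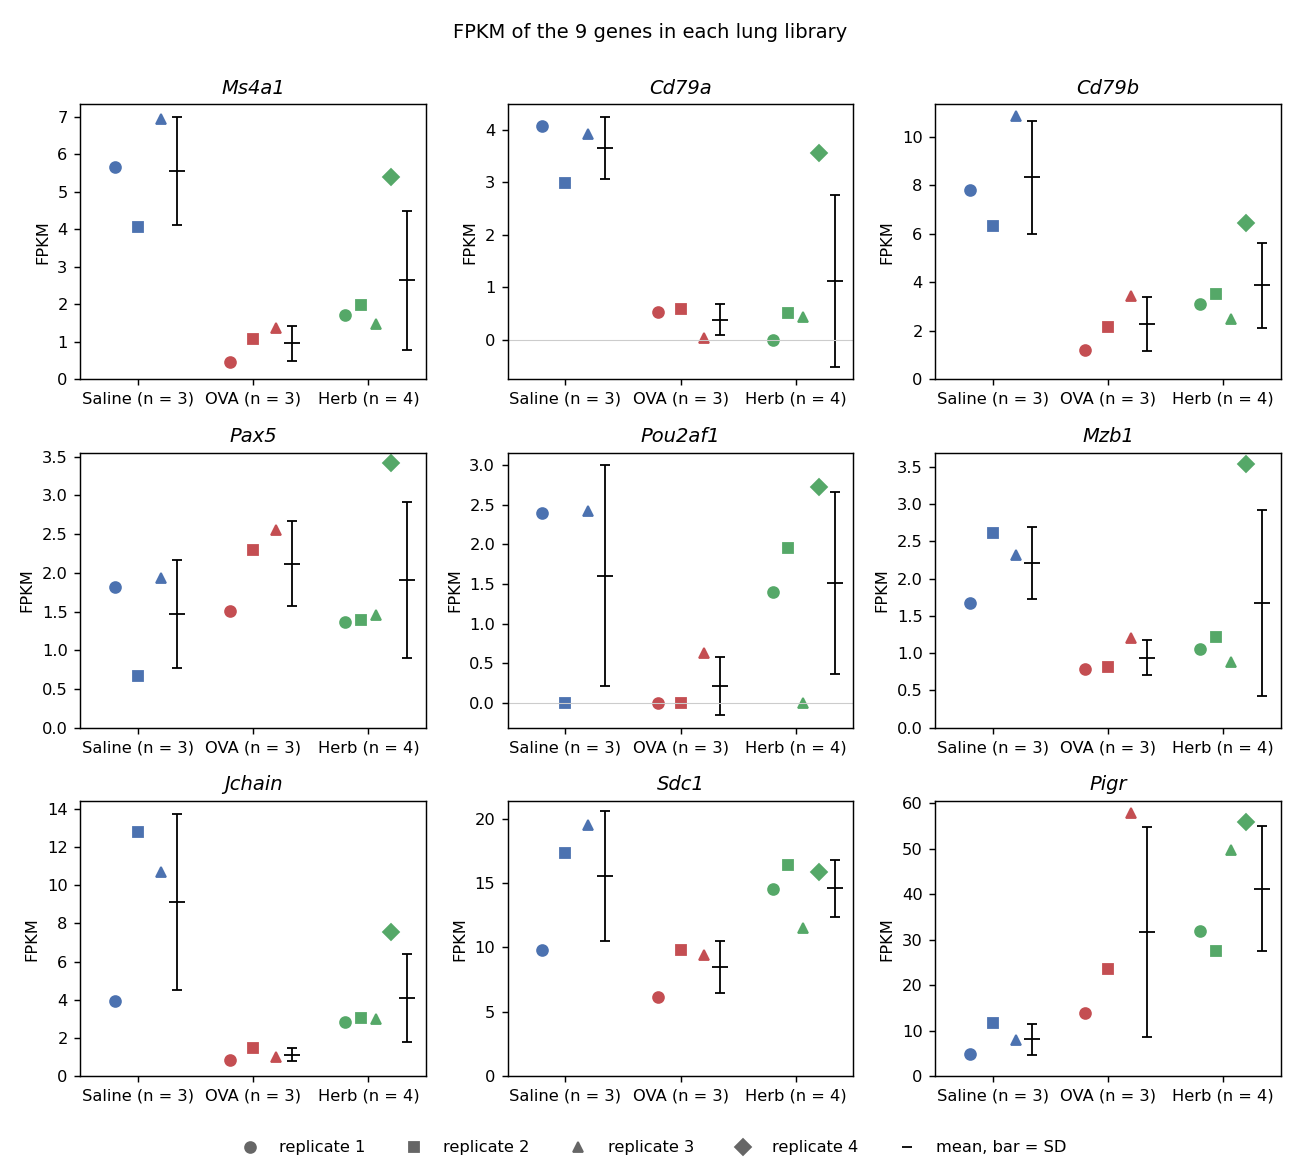
FPKM of each of the 9 genes (vertical axes, linear) in every library of Saline (n = 3), OVA (n = 3) and Herb (n = 4). Symbols mark the replicate, and the horizontal dash with its bar is the group mean ± SD. Ms4a1, Cd79a, Cd79b and Jchain were lowest on average in OVA, Pigr was higher in every OVA and Herb library than in any Saline library, and Herb replicate 4 (diamond) was the highest Herb library for 8 of the 9 genes.

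In OVA vs. Saline, 5 of the 9 genes were called lower (Ms4a1, Cd79a, Cd79b, Jchain and Sdc1) and 1 was called higher (Pigr) as deposited, by limma with an adjusted p under 0.05 over all gene sums. Of all tested gene sums, 57.9% were called lower and 3.28% higher, so the share of members called lower is close to that of the table. The median log2 fold change of the 9 genes was -0.94. After rescaling, 1 gene remained called lower (Jchain) and 2 were called higher (Pax5 and Pigr), against 17.2% of all gene sums called lower and 24.1% called higher, and the median of the 9 was -0.61. The OVA values lay below every Saline value for 6 of the 9 genes as deposited, where 63% of gene sums did so, and above every Saline value for 1 gene, where 4.68% did so. Rescaled, these counts were 3 below (23.3% of gene sums) and 2 above (31.2%).

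Ms4a1, which encodes the B cell surface protein CD20, was at 5.67, 4.05 and 6.94 FPKM in Saline, 0.450, 1.08 and 1.36 in OVA and 1.70, 1.99, 1.46 and 5.39 in Herb. All OVA values lay below all Saline values, and all Herb values above all OVA values. The log2 fold change in OVA vs. Saline was -1.74 ± 0.36 (SE, adjusted p = 0.00245). Rescaled, it was -0.99 with an adjusted p of 0.0564, and the groups still did not overlap. In Herb vs. OVA the difference was 0.80 as deposited (adjusted p = 0.0783) and 0.45 rescaled (adjusted p = 0.424). The Herb value rests in part on replicate 4, and without it the difference was 0.49 as deposited.

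Cd79a, one of the signalling chains of the B cell receptor, was at 4.07, 2.98 and 3.91 FPKM in the saline lungs, while OVA gave 0.528, 0.588 and 0.0388. In Herb it was listed at 0 in replicate 1 and was at 0.508, 0.426 and 3.56 in the others. An exact 0 in this table can be a failed estimate, and Cd79b was at 3.09 FPKM in that library. The OVA values correspond to roughly 22.6, 19.8 and 1.15 fragments, so the lowest rests on about a single fragment. The Saline values lay above all OVA values on both scales, whereas the Herb values overlapped with both groups. Cd79a fell in OVA vs. Saline (log2 fold change -1.77 ± 0.48, adjusted p = 0.0103), and the rescaled value was -1.18 (adjusted p = 0.086). It would not have passed the filter on low values without the Saline libraries, where it was high. With no filter the deposited value had an adjusted p of 0.0196. In Herb vs. OVA the values were 0.38 as deposited (adjusted p = 0.513, 95% confidence interval -0.63 to 1.39) and 0.18 rescaled, and without Herb replicate 4 the deposited difference turned to -0.08.

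Cd79b, the partner chain, was at 7.82, 6.30 and 10.9 FPKM in Saline, 1.22, 2.14 and 3.43 in OVA and 3.09, 3.52, 2.49 and 6.44 in Herb. Every OVA value lay below every Saline value as deposited, and the groups overlapped once rescaled. The log2 fold change in OVA vs. Saline was -1.54 ± 0.33 (adjusted p = 0.0031) as deposited and -0.64 (adjusted p = 0.153) rescaled. For Herb vs. OVA it was 0.58 (adjusted p = 0.157) and 0.09 (adjusted p = 0.882). Ms4a1 and Cd79b ran closely together over the 10 libraries, with a Pearson r of 0.937 on the rescaled log2 scale, a description in which all points share the 3 groups.

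Pax5, the transcription factor that maintains B cell identity, did not follow the receptor genes. It was at 1.82, 0.667 and 1.93 FPKM in Saline, 1.51, 2.29 and 2.55 in OVA and 1.37, 1.38, 1.46 and 3.41 in Herb. The groups overlapped as deposited, and the log2 fold change in OVA vs. Saline was 0.36 ± 0.30 (adjusted p = 0.318). Rescaled, every OVA library (2.60, 3.18 and 3.88) stood above every Saline library (1.24, 0.461 and 1.33), and Pax5 was called higher at 1.09 ± 0.29 (adjusted p = 0.0156). The difference in Herb vs. OVA was -0.14 as deposited (adjusted p = 0.707) and -0.62 rescaled (adjusted p = 0.182).

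Pou2af1, a coactivator of octamer-binding factors in B cells, was detected unevenly. It was listed at 0 in 1 of 3 Saline, 2 of 3 OVA and 1 of 4 Herb libraries. The remaining values were 2.40 and 2.42 FPKM in Saline, 0.634 in OVA and 1.39, 1.95 and 2.72 in Herb. An exact 0 in this table can be a failed estimate, and no comparison passed the test as deposited (adjusted p = 0.19 in OVA vs. Saline and 0.185 in Herb vs. OVA) or rescaled (-0.61 with an adjusted p of 0.399, and 0.79 with an adjusted p of 0.351). Pou2af1 passed the filter on low values only through Herb replicate 4. Without Saline replicate 2, which was listed at 0, OVA vs. Saline was -1.53 (adjusted p = 0.0321).

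Among the plasma cell genes, Jchain kept its call in OVA vs. Saline on both scales. It was at 3.94, 12.8 and 10.7 FPKM in Saline, 0.819, 1.49 and 1.03 in OVA and 2.83, 3.03, 3.01 and 7.57 in Herb. OVA lay below Saline and below Herb without overlap, on both scales. In OVA vs. Saline Jchain fell by 2.15 on the log2 scale (SE 0.42, adjusted p = 0.0018) as deposited and by 1.34 (SE 0.42, adjusted p = 0.0307) rescaled. On gene sums it was called lower under all 18 alternatives run. Tested over single transcript rows, neither Jchain nor any other member was called lower after rescaling to a common mRNA fragment share. In Herb vs. OVA it was called higher as deposited at 1.20 ± 0.39 (adjusted p = 0.0344). Rescaled, this difference was 0.80 (adjusted p = 0.223, 95% confidence interval -0.08 to 1.68), and without Herb replicate 4 the deposited difference was 0.92 (adjusted p = 0.0642). The call was also lost without any 1 of the 3 OVA libraries or Herb replicate 2, with differences up to 1.32 and adjusted p up to 0.106.

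Mzb1, which encodes an endoplasmic reticulum protein of antibody-producing cells, was at 1.68, 2.62 and 2.32 FPKM in Saline, 0.791, 0.813 and 1.21 in OVA and 1.06, 1.21, 0.880 and 3.53 in Herb. OVA lay below Saline without overlap, but the log2 fold change of -0.72 ± 0.31 did not pass the test (adjusted p = 0.0682, or 0.0052 without Herb replicate 4, which shares the estimate of the spread), and rescaled it was -0.04 with overlapping groups. Depth limits this gene, since 16.1 to 62.3 fragments lay behind each value. The difference in Herb vs. OVA was 0.37 (adjusted p = 0.315) and rescaled 0.01.

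Sdc1 encodes syndecan-1, a surface proteoglycan that marks plasma cells and is also made by epithelial cells. It was at 9.83, 17.4 and 19.5 FPKM in Saline, 6.14, 9.82 and 9.43 in OVA and 14.5, 16.4, 11.5 and 15.9 in Herb. The highest OVA value, 9.822, lay just under the lowest Saline value, 9.828, and all Herb values lay above all OVA values. As deposited, Sdc1 was called lower with ovalbumin at -0.78 ± 0.27 (OVA vs. Saline, adjusted p = 0.0298). With the extract it was called higher at 0.73 ± 0.25 (Herb vs. OVA, adjusted p = 0.0403). Both calls were lost on rescaling, where OVA vs. Saline turned to 0.28 (adjusted p = 0.344) and Herb vs. OVA shrank to 0.11 (adjusted p = 0.777). The call in OVA vs. Saline was also lost without Saline replicate 2 (-0.68), Saline replicate 3 (-0.60) or OVA replicate 1 (-0.59). That in Herb vs. OVA was lost without OVA replicate 1 (0.54), OVA replicate 3 (0.81) or Herb replicates 1, 2 or 4 (0.68 to 0.73). Tested over single transcript rows instead of gene sums, the Herb vs. OVA difference had an adjusted p of 0.0558. The ratio of Sdc1 to Epcam, an epithelial adhesion gene, overlapped across the groups, at 0.791 to 1.86 in Saline, 0.998 to 1.59 in OVA and 1.27 to 1.72 in Herb.

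Pigr moved in the opposite direction to Ms4a1, Cd79a, Cd79b and Jchain. It was at 4.79, 11.6 and 7.98 FPKM in Saline, 13.9, 23.5 and 57.7 in OVA and 31.9, 27.5, 49.6 and 55.8 in Herb. Each OVA and each Herb library lay above each Saline library on both scales. Pigr rose in OVA vs. Saline at 1.68 ± 0.51 (adjusted p = 0.0169) as deposited and 2.74 ± 0.52 (adjusted p = 0.00399) rescaled. On gene sums the call was lost without Saline replicate 1, where the deposited value was 1.38 with an adjusted p of 0.0627. Without OVA replicate 3 the value on gene sums was 1.14 (adjusted p = 0.0466). Tested over single transcript rows, the call was lost in the fit of only the groups compared. It was also lost there without Saline replicate 1, Saline replicate 3 or OVA replicate 3. OVA and Herb overlapped, and the difference was 0.55 (adjusted p = 0.367, 95% confidence interval -0.52 to 1.61) as deposited and -0.11 (adjusted p = 0.908) rescaled.

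**Figure D2:**
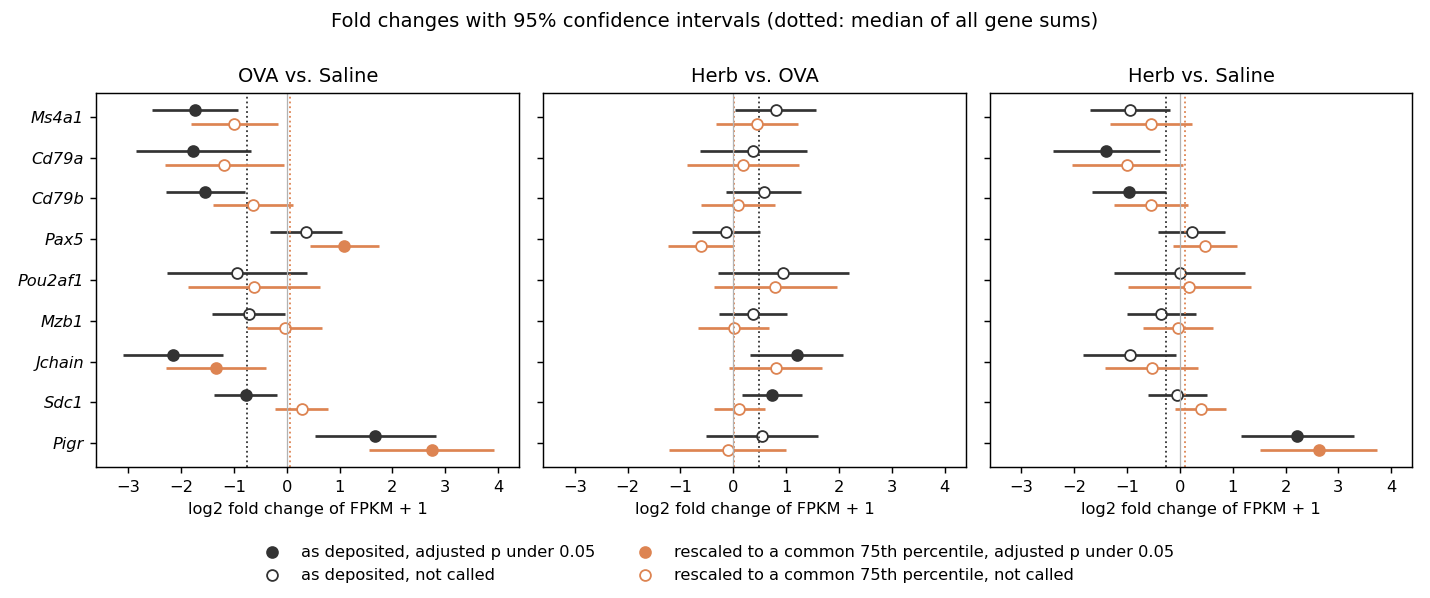
Log2 fold change of FPKM + 1 (horizontal axes) for each gene in the 3 comparisons, with 95% confidence intervals from limma. Dark points are the values as deposited, orange points the values rescaled to a common 75th percentile, filled points passed an adjusted p of 0.05, and dotted lines are the medians of all tested gene sums. Jchain was called lower and Pigr higher in OVA vs. Saline on both scales, and no gene was called in Herb vs. OVA after rescaling.

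In Herb vs. OVA, 2 of the 9 genes were called higher as deposited (Jchain and Sdc1) and none lower, against 44% of all gene sums called higher and 0.446% called lower. The median log2 fold change of the 9 genes was 0.58. Rescaled, limma called 0 of the 9, and 1 gene, Pax5, had an unadjusted p under 0.05, while 0.348% of all gene sums were called higher and 0.455% lower. The 9 genes then had a median of 0.11. Herb lay above OVA without overlap for 3 genes as deposited (these were Ms4a1, Jchain and Sdc1), where 49.6% of gene sums did so, and for 1 gene rescaled (Jchain), where 11% did so.

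In Herb vs. Saline, Cd79a (-1.39, adjusted p = 0.0491) and Cd79b (-0.97, adjusted p = 0.0485) were called lower and Pigr (2.22 ± 0.47, adjusted p = 0.0138) higher as deposited, with 22.7% of all gene sums called lower and 3.32% higher. On gene sums, the call of Cd79a was lost under 15 of 18 alternatives and that of Cd79b under 13. That of Pigr held under all 18, with an adjusted p of at most 0.0479. Tested over single transcript rows, the Pigr call was lost with the replicate block. It was also lost there without any 1 Saline library or without Herb replicate 1, 3 or 4. Pigr was the 1 gene whose Herb values all exceeded the Saline values, which 6.94% of gene sums did. Rescaled, Pigr alone was called, at 2.63 (adjusted p = 0.0156), with 10.6% of gene sums called higher. Without Herb replicate 4, 5 of the 9 genes were called, Ms4a1 (-1.25), Cd79a (-1.84), Cd79b (-1.19) and Mzb1 (-0.64) lower and Pigr (2.06) higher, where 12.6% of all gene sums were called lower and 1.75% higher. Without Saline replicate 1, Jchain was called lower (-1.40, adjusted p = 0.0348).

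Ratios of genes within a library do not depend on the scaling of the libraries. The ratio of Pigr to Epcam was 0.385, 0.850 and 0.760 in the Saline libraries, 3.35 to 6.11 in OVA and 2.88 to 5.60 in Herb, so both ovalbumin groups lay well above Saline and overlapped with each other. The ratio of Pax5 to Ms4a1 separated all 3 groups, at 0.165 to 0.320 in Saline, 1.88 to 3.34 in OVA and 0.632 to 0.999 in Herb. Jchain over Cd79b was 0.504 to 2.03 in Saline, 0.299 to 0.693 in OVA and 0.862 to 1.21 in Herb, so Herb lay above OVA and Saline overlapped with both. Mzb1 over Cd79b, with the other plasma cell gene, was 0.214 to 0.415 in Saline, 0.351 to 0.650 in OVA and 0.342 to 0.549 in Herb, and all 3 groups overlapped. The 2 receptor chains, Cd79a over Cd79b, gave 0.361 to 0.520 in Saline, 0.0113 to 0.434 in OVA and 0 to 0.553 in Herb, also with overlap. Cd79b over the T cell gene Cd3e was 2.80 to 3.32 in Saline, 2.51 to 4.24 in OVA and 1.91 to 2.78 in Herb. This ratio overlapped between Saline and OVA. The ratios are descriptions and were not tested.

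**Figure D3:**
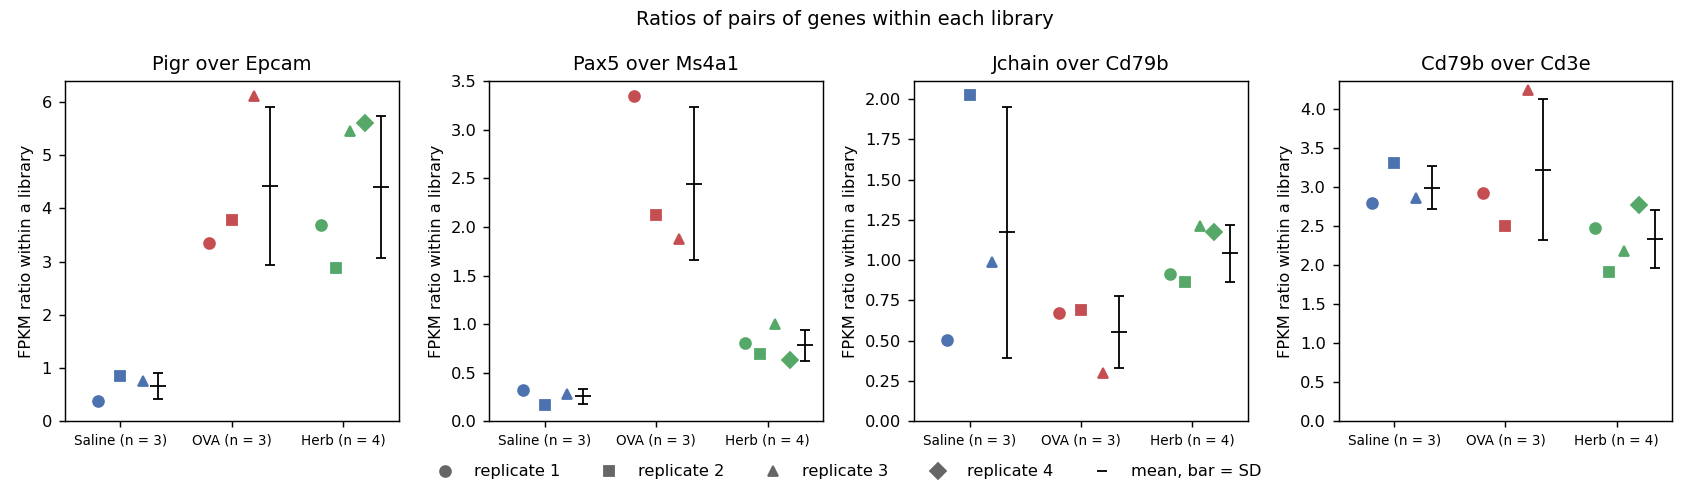
Ratios of the FPKM of gene pairs within each library (vertical axes, linear from 0) in Saline (n = 3), OVA (n = 3) and Herb (n = 4), with the mean ± SD beside the points. Pigr over Epcam was 0.385 to 0.850 in Saline and 2.88 or more in every other library, Pax5 over Ms4a1 was highest in OVA, and Cd79b over Cd3e overlapped between Saline and OVA.

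The summed levels of other cell types' markers, as deposited, also differed between the groups. The summed FPKM of the T cell list (9 of its 10 genes in the table) was 13.9 to 23.4 in Saline, 4.87 to 8.44 in OVA and 8.29 to 19.2 in Herb. As deposited, 3 of its 4 tested genes were called lower in OVA vs. Saline, against 57.9% of all gene sums. Cd3g would not have passed the filter on low values without the Saline libraries, where it was high. After rescaling limma called 0 of the 4 (unadjusted p = 0.0425 for Cd3e, 0.0487 for Cd3g and 0.0932 for Cd2), with a median of -0.47 against 0.07 for all gene sums. The epithelial list (16 genes) was at 18002 to 27920 in Saline, 3203 to 5783 in OVA and 9010 to 14475 in Herb, the endothelial list (7 genes) at 440 to 482, 67.2 to 128 and 169 to 318, the myeloid list (7 genes) at 1363 to 1690, 94.3 to 331 and 383 to 1009, and the plasmacytoid dendritic cell list (8 genes) at 24.3 to 43.8, 6.32 to 19.5 and 14.8 to 32.7. Single genes carried some of these sums. Scgb1a1, a secretory gene of club cells, averaged 17538 FPKM in Saline and 3929 in OVA, and Lyz2, a lysozyme gene of myeloid cells, 1244 and 174. Of the 15 epithelial genes tested, 13 were called lower and 1 higher in OVA vs. Saline as deposited, and 7 lower and 1 higher after rescaling. The shares over all gene sums were 57.9% lower and 3.28% higher as deposited, and 17.2% and 24.1% after rescaling. The 1 epithelial gene higher on both scales was Foxj1, a ciliated cell transcription factor (1.26, adjusted p = 0.017, and rescaled 2.26, adjusted p = 0.00311). The myeloid gene Itgax was called higher after rescaling (1.94, adjusted p = 0.00619). Both are named after their values were seen. The part of these cell types in the members' differences was not tested. All 16 epithelial markers were in the table, and the tissue is labelled as lung.

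Further B cell surface and signalling genes gave a mixed picture. Of 15 tested, none was called higher and 3 were called lower in OVA vs. Saline as deposited, against 3.28% and 57.9% of all gene sums. The median log2 fold change was -0.29 against -0.75 for all gene sums. The 3 called lower were Fcmr, which encodes a receptor for IgM (-1.35, adjusted p = 0.000908), Fcrla, a B cell Fc receptor-like gene (-1.08, adjusted p = 0.00245), and Ebf1, an early B cell transcription factor (-0.65, adjusted p = 0.00415). Fcmr and Fcrla would not have passed the filter on low values without the Saline libraries, where both were high. Rescaled, Fcmr alone was called lower (-0.78, adjusted p = 0.0223), where 17.2% of all gene sums were called lower and 24.1% higher. The kinase genes Blk (1.15) and Btk (0.79), the adaptor gene Blnk (1.16) and the surface receptor gene Cd72 (adjusted p = 0.00788) were then called higher, with adjusted p between 0.00455 and 0.0414, and are named because they make up the whole count. The extract comparison, Herb vs. OVA, gave 1 call of 15, Cd83, an activation marker of B cells and dendritic cells (0.79, adjusted p = 0.0341), and none after rescaling. As deposited, 44% of all gene sums were called higher in it.

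Of 11 tested genes of plasma cells and antibody secretion, 5 were called lower and 2 higher in OVA vs. Saline as deposited. The shares over all gene sums were 57.9% lower and 3.28% higher. Prdm1, which encodes the plasma cell regulator Blimp-1, was at 3.25, 3.15 and 3.76 FPKM in Saline and 1.06, 1.82 and 1.26 in OVA (-0.89, adjusted p = 0.000964). The chaperone gene Hsp90b1 (mean 82.1 FPKM in Saline and 33.9 in OVA, adjusted p = 0.0022) and the translocon gene Ssr4 (-1.12) also fell, and both are used by many secretory cells. The 2 called higher were Derl3 (0.75) and Herpud1 (2.19), genes of the disposal of misfolded proteins, and both remained so after rescaling. Derl3 would not have passed the filter on low values without the OVA libraries, where it was high. None of the 5 lower calls remained after rescaling, where 17.2% of all gene sums were called lower and 24.1% higher. With the extract (Herb vs. OVA), Sec11c, a signal peptidase gene (1.00, adjusted p = 0.0207), and Prdm1 (0.49, adjusted p = 0.0245) were among 3 called higher as deposited. In this comparison 44% of all gene sums were called higher and 0.446% lower. Edem1, a gene of the disposal of misfolded glycoproteins, was the 1 gene called lower, at 2.20, 3.05 and 2.03 FPKM in OVA and 0.653 to 1.36 in Herb (-0.71, adjusted p = 0.0104), and it remained called after rescaling (-1.21, adjusted p = 0.0087).

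Signals for B cell survival and homing were tested for 6 of 12 genes. In OVA vs. Saline 1 was called lower as deposited, Ccl21a, a chemokine of lymphoid tissue, at 7.14, 0.434 and 4.16 FPKM in Saline and listed at 0 in 2 of 3 OVA libraries (adjusted p = 0.0248). This call was lost on rescaling (-1.48, adjusted p = 0.0647). Without the Saline libraries, Ccl21a would not have passed the filter on low values. The extract comparison had 2 called higher, Cxcl12, a chemokine that retains plasma cells (1.26, adjusted p = 0.00716), and Tnfsf13, which encodes the survival factor APRIL (0.37, adjusted p = 0.0313), and neither was called after rescaling. Tnfsf13 and Ltb, the gene of lymphotoxin beta, were called higher in OVA vs. Saline after rescaling (0.92 and 1.14), as were 24.1% of all gene sums.

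Of 7 tested genes of Fc receptors and antibody transport other than Pigr, 4 were called lower with ovalbumin (OVA vs. Saline) and 5 higher with the extract (Herb vs. OVA) as deposited. The shares over all gene sums were 57.9% and 44%. B2m, whose product is the light chain of the neonatal Fc receptor and of MHC class I, was at 350, 361 and 249 FPKM in Saline, 15.4, 33.0 and 27.4 in OVA and 79.5, 107, 44.4 and 75.2 in Herb. It fell by 3.66 on the log2 scale in OVA as deposited (adjusted p = 0.000149) and by 2.52 rescaled (adjusted p = 0.000776). Fcgr4, an activating IgG receptor gene of myeloid cells, and Fcer1g, the shared signalling chain of Fc receptors, were lower in OVA on both scales (rescaled -1.35 and -0.57). Besides these 3 lower genes, 2 of the 7 were called higher in OVA vs. Saline after rescaling, the inhibitory IgG receptor gene Fcgr2b (1.91, adjusted p = 0.0216) and Trim21, a cytosolic antibody receptor gene (0.54, adjusted p = 0.0278). After rescaling, 17.2% of all gene sums were called lower and 24.1% higher. Fcgr3 was called higher in Herb vs. OVA as deposited (1.18, adjusted p = 0.00716). None of the 7 was called in Herb vs. OVA after rescaling, where the list's median was 0.60 against 0.01 for all gene sums.

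Herb replicate 4 stood apart in the B cell genes. It was the highest Herb library for 8 of the 9 members and for 15 of the 15 further B cell genes tested, and for 21.6% of all gene sums. Pou2af1 and some of the further B cell genes, such as Spib, passed the filter only through this library. With the filter taken over the other 9 libraries, chosen after seeing the data, it was highest in Herb for 7 of 8 members, 12 of 12 further B cell genes and 20.9% of gene sums. Over the median of the other Herb libraries, the members were 1.09 to 8.35 times as high with a median of 2.47, the further B cell genes were up to 11.2 times as high with a median of 2.14, and all gene sums had a median of 0.949. The 9 T cell genes were at 1.17 to 2.66 times, with a median of 1.90. The summed B cell list was 60.9 FPKM in this library and 25.7 to 26.8 in the other Herb libraries. The summed plasma cell list, which leaves out the 9 members, was 86.0 FPKM in this library and 93.5 to 98.8 in the others. Hsp90b1, a chaperone gene of many secretory cells, made up much of that sum, at 36.1 FPKM against 39.4 to 49.6. The sum therefore cannot show whether plasma cell genes followed. Of the plasma cell members, Mzb1 was at 3.3 times, Jchain at 2.5 times and Sdc1 at 1.09 times the median of the other Herb libraries.

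**Figure D4:**
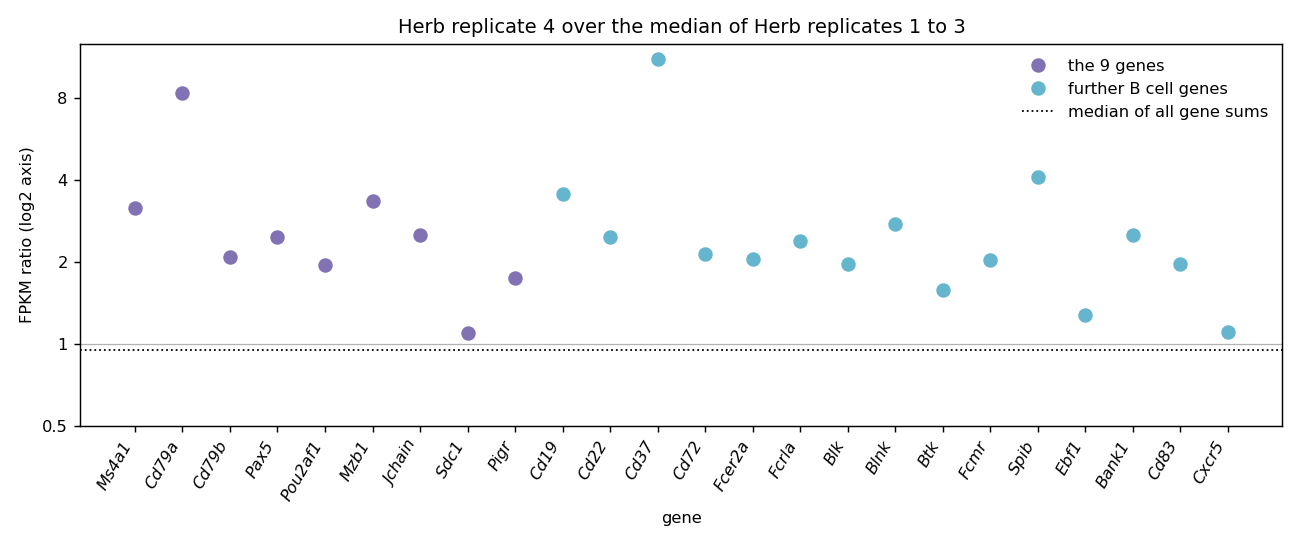
FPKM of each gene in Herb replicate 4 divided by its median over Herb replicates 1 to 3 (vertical axis, log2 scale), for the 9 genes and the 15 further B cell genes tested. The dotted line is the median over all gene sums, 0.949. Each gene shown lay above 1, with Cd79a at 8.35 and Cd37 at 11.2.

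The genes whose pattern over the 10 libraries was most like that of 3 members were found by Pearson r on the rescaled log2 scale, as a description over libraries that share the 3 groups. For Cd79a these were Tspan9 (r = 0.883), Ddx21, Ppp1r12b, Chchd7 and Dag1 (0.860). For Jchain they were Cd69 (0.953), an early activation marker of lymphocytes, Lipo1, Cd52, a surface antigen of lymphocytes, Micu2 and Rplp0 (0.913). For Pigr they were Daglb (0.990), Tfdp1, Adam8, Clca1 and Tubb4b (0.978). Clca1, a goblet cell gene, had a mean of 0.0181 FPKM in Saline, 283 in OVA and 248 in Herb.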

How the data were processed

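RNA-seq of mouse lung was analysed from 1 deposited table of FPKM with a row per transcript and a column per mouse (10 libraries in 3 groups taken from the sample labels). The authors' tools, per the labels, were cutadapt 1.10, HISAT2 and StringTie 1.3.3b on mm10, and the methods of the study name ballgown for quantification. The authors deposited FPKM without counts, so no count model was used. The labels and the methods differ on the RNA extraction and library kits. The table held 34943 rows with a symbol, which were summed per symbol, and 31605 without, which were not used. Of the 20 genes on the B cell surface and signalling list, 18 were found. The immunoglobulin heavy chain constant genes Ighm and Ighd had no row under these symbols, and no other such genes were looked for.

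Depth was estimated from values under 0.1 FPKM, where FPKM times transcript length steps by the worth of 1 fragment. The test was limma 3.58.1 under R 4.3.3 (lmFit, eBayes with trend) on log2(FPKM + 1) in 1 fit of 3 group means over 11205 gene sums with a mean of at least 1 FPKM, with Benjamini-Hochberg adjustment over all of them. A call is an adjusted p under 0.05. The scale understates the change of low genes. The limma fit was first tested on simulated data. Alternatives were a pseudocount of 0.1, no filter, rescaling to a common 75th percentile, quantile normalization, no trend, only the groups compared, a replicate block, leaving out each library and, added after the data were seen, rescaling to a common mRNA fragment share. Python 3.11.15, pandas 2.3.3, numpy 2.4.6 and matplotlib 3.10.9 did the rest.

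The members, the gene lists and the tests were chosen with earlier results of these data known. Named are all members, of each further list up to 3 called genes with the smallest p in OVA vs. Saline and in Herb vs. OVA, and the 5 genes most like Cd79a, Jchain and Pigr. A name outside this rule was chosen after its values were seen.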

Additional observations from a re-analysis of the deposited data

Results flagged for a closer look

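In Herb (n = 4), replicate 4 lay so far above the other libraries that the gap to the nearest of them exceeded 0.829 of the group's whole range for 5 of the 9 genes. Ms4a1 was at 5.39 FPKM in it (next highest 1.99), Cd79a at 3.56 (0.508), Pax5 at 3.41 (1.46), Mzb1 at 3.53 (1.21) and Jchain at 7.57 (3.03). Chance marks about 1 in 20 groups in this way. Over all 11205 gene sums, 152 (1.36%) had this library apart and high, and 7.04% had any Herb library apart. Of the further B cell genes, Cd22, Fcrla and Bank1 showed it too, and so did Spib, which passed the filter on low values only through this library (3.76 FPKM in it, 0.292 to 1.56 in the others). The cause was not tested.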

How the results depend on the processing

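Counts of members called are given here for OVA vs. Saline, Herb vs. OVA and Herb vs. Saline, where they were 6, 2 and 3 on gene sums and 6, 1 and 1 on single rows. Rescaling to a common 75th percentile gave 3, 0 and 1 on gene sums and 0 on single rows in Herb vs. OVA, and 90 and 1758 gene sums of the whole table in the last comparisons against 4982 and 2921. Quantile normalization gave 4004, 157 and 841 gene sums of the table, 0 and 1 members in Herb vs. OVA and Herb vs. Saline, and 2 and 0 single rows in OVA vs. Saline and Herb vs. OVA. A common mRNA fragment share, added after seeing the data, gave 3, 0 and 1 members, 2 and 0 single rows in OVA vs. Saline and Herb vs. OVA, and 127 and 1928 gene sums of the table in Herb vs. OVA and Herb vs. Saline. A pseudocount of 0.1 gave 2 single rows in Herb vs. OVA and 1 member in Herb vs. Saline, no filter 0 members and 0 single rows in Herb vs. OVA and 1 member in Herb vs. Saline, and the fit of only the groups compared 2 single rows in Herb vs. OVA. Leaving out 1 library in turn gave 5 to 7, 0 to 2 and 1 to 5 members, 3 to 6, 0 to 2 and 0 to 2 single rows, and 6143 to 6862, 3225 to 5069 and 897 to 3224 gene sums of the table.

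Same-numbered libraries did not deviate together (correlations between -0.00869 and 0.0953), so the numbers were not taken as pairs. With the replicate block, in which Herb replicate 4 has no partner, 1 member was called in Herb vs. OVA, 5 members in Herb vs. Saline, 0 single rows in both and 1342 gene sums of the table in Herb vs. Saline, and Cd79a in Herb vs. OVA turned to -0.08.

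Directions turned as follows, in the order common 75th percentile, quantile normalization and common mRNA share where all 3 apply. Sdc1 turned to 0.28, 0.51 and 0.43 in OVA vs. Saline, to 0.39, 0.50 and 0.46 in Herb vs. Saline, and under quantile normalization to -0.01 in Herb vs. OVA. Pigr in Herb vs. OVA turned to -0.11, -0.40 and -0.19. Pou2af1 in Herb vs. Saline turned to 0.18, 0.07 and 0.21, and to 0.17 with a pseudocount of 0.1. With the mRNA share Mzb1 turned to 0.05, -0.04 and 0.01 in the 3 comparisons, and under quantile normalization to -0.01 in Herb vs. OVA. Leaving out 1 library, Cd79a in Herb vs. OVA ran from -0.08 to 0.65, Pax5 in Herb vs. Saline from -0.04 to 0.37, Pou2af1 there from -0.59 to 0.39 and Sdc1 there from -0.33 to 0.13. Causes were not tested beyond what each rescaling does by construction. Depth limits Cd79a, Mzb1 and Pou2af1 most.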
